A study of Homo sapiens with 4 samples.

Results

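Azurophil granules are the primary granules of neutrophil and monocyte precursors, and 8 genes for their proteins and for inhibitors of their proteases are described here: MPO, CTSG, ELANE, PRTN3, AZU1, SRGN, CST7 and SERPINB1. They were chosen by gene symbol, and all 8 are among the 11597 genes of the authors' deposited table. The cells were MOLM13, an established human line from acute myeloid leukaemia, with 2 libraries from cells transduced with a lentivirus carrying a BTG2 cDNA and 2 from cells with the empty vector, which the labels call wild type. Both groups were collected 3 days after spin infection, and both carried the same EF1α-driven vector with a puromycin resistance gene and the green fluorescent reporter ZsGreen, and the labels mention neither selection nor sorting. All 4 libraries come from this single cell line. BTG2 is an adaptor that recruits the CCR4-NOT deadenylase to mRNA, and the design text asks what it does to mRNA stability.

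Azurophil granules form at the promyelocyte stage, when their mRNAs are most abundant. Serine proteases with antimicrobial activity are packed there on the proteoglycan serglycin together with myeloperoxidase, which makes hypochlorous acid. Cytosolic serpins hold these proteases in check, and a granule cystatin inhibits cysteine cathepsins. Leukaemias with myeloid features often keep expressing these genes, and myeloperoxidase is a classical marker of the myeloid lineage in diagnosis.

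The deposited values are 1 mean normalized count per gene over the libraries and the authors' own log2 fold change of BTG2 over empty vector with its standard error (SE). Values for single libraries were not used here, so the spread between libraries, their depth and the number of libraries that showed a direction are unknown. Whether replicates came from separate cultures is not stated, so p-values could reflect technical variation alone. Genes count as called, that is as higher or lower, where the authors' adjusted p was under 0.05. BTG2 itself stood at a log2 fold change of 5.01 (SE 0.09) in the authors' deposited table, with cDNA and endogenous reads not separated. In the marker check, 15 of 20 myeloid surface genes were listed, at mean normalized counts from 39.5 to 2550. Among them CD33 stood at 359, ITGB2 at 2550 and PTPRC at 546, all from the authors' deposited table. CD14, KIT, CD34, ANPEP and CLEC12A, planned as myeloid markers, were not among the 15, and some of the 15 were outside that plan. Of 9 T cell genes 1 was listed (TRAC, 58.6), of 7 B cell genes 1 (PAX5, 53.1), and of the erythroid and eosinophil lists 0, by mean normalized count in the authors' deposited table. TRAC and PAX5 lie inside the range of the listed myeloid genes, so level alone does not separate them. PAX5, a B cell transcription factor, was called lower (adjusted p = 2.38e-08 in the authors' deposited table), with an implied level of 0.171 with BTG2 against 106 with empty vector, and TRAC did not pass. The fitted log2 fold change of PAX5, -9.28, does not measure a fold at so low a level, and its part in the granule gene values was not tested. In these bulk samples, fewer cells of a type and less RNA per cell cannot be told apart.

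With BTG2 the granule genes did not move as a block. MPO (a change of -54.5%), CST7 (-38.1%), CTSG (-28.7%) and SRGN (-19.6%) fell, AZU1 fell slightly (-6.28%), ELANE (17.2%) and PRTN3 (11.6%) rose, and SERPINB1 did not pass the test, all as computed from the authors' deposited table. Of the 8 genes, 5 were lower and 2 higher, where 4.47% of all listed genes were lower, 3.64% higher and 8.11% called in either direction. The median log2 fold change of the 8 was -0.20, against 0.00 over all listed genes. The granule genes are abundant, and the test calls more genes at high counts. Of the 1072 genes with a mean normalized count of 1000 or more, 32.8% were called, 21.2% lower and 11.7% higher, and 6 granule genes lie in that range. Among the 200 genes closest in mean count, the share called was 47.0% around SRGN and AZU1 but 10.5% around MPO. Read against a t distribution with 2 degrees of freedom, the authors' statistic passed for 0 of the 8 genes after adjustment. It passed for 0 of all 11597 listed genes as well, so this says nothing about the granule genes in particular. Before adjustment, the p from that distribution was under 0.05 for 5 of the 8 and for 3.16% of all listed genes.

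**Figure D1:**
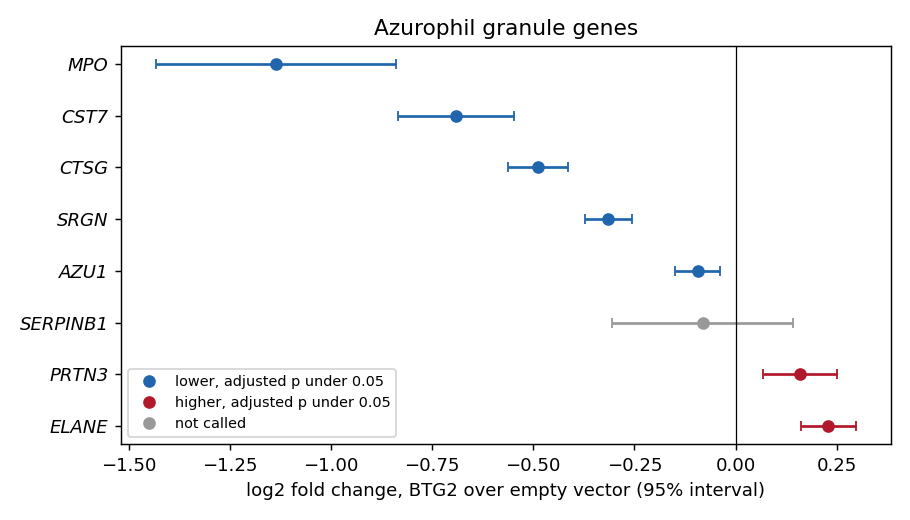
Log2 fold change of BTG2 over empty vector for the 8 granule genes, with 95% intervals from the authors' standard errors. MPO (-1.14), CST7, CTSG, SRGN and AZU1 lie left of 0, ELANE (0.23) and PRTN3 lie right of it, and the interval of SERPINB1 spans it.

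MPO encodes myeloperoxidase, the haem enzyme of the granule. It had the largest fold change of the 8 genes, with a log2 fold change of -1.14 (SE 0.15, adjusted p = 7.83e-12) by the authors' deposited table. That is a ratio of 0.455 (95% interval 0.371 to 0.559), or a change of -54.5%. Its mean normalized count, 239.8 over the libraries, was the lowest of the 8. If that mean weights the 4 libraries equally, the fold change implies a level of 149.9 with BTG2 against 329.6 with empty vector. Only 1.10% of all listed genes had a lower log2 fold change than MPO, and 1.5% of the 200 genes closest to it in mean count had a larger one in size. Its SE was close to the median of those 200 genes, 0.15. MPO lies on chromosome 17 (58269856 to 58280935, minus strand; GENCODE release 29 on GRCh38, as for all positions of genes here). LPO, the lactoperoxidase gene next to it at a gap of 1.34 kb, did not pass the test, with a log2 fold change of 0.04 (SE 0.28) in the authors' deposited table. Farther along, TSPOAP1 rose by 0.61 and MIR142HG, the host transcript of a blood-cell microRNA, by 0.78 on the log2 scale in the authors' deposited table. Both overlap a transcript of the opposite strand, and whether counting used the strand is not stated, so these values are uncertain.

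Myeloperoxidase needs haem, a chaperone-assisted fold and an oxidase that supplies its substrate, and genes of each are given here. Counts of called genes in this and the other lists stand against the 8.11% called among all listed genes and the 32.8% called among those with a mean normalized count of 1000 or more. Of 15 listed genes of haem synthesis and breakdown, 2 fell and 0 rose (13.3% called), with a median log2 fold change of -0.10. Both that fell are the 2 haem genes with a mean count of 1000 or more. ABCB10, a mitochondrial transporter needed for haem synthesis in red-cell precursors, fell by 0.87 (SE 0.07, adjusted p = 8.28e-31) on the log2 scale in the authors' deposited table. TMEM14C, a mitochondrial membrane protein that helps porphyrin precursors cross, fell by 0.21 (SE 0.06, adjusted p = 0.00693) by the authors' deposited table. ALAS1, the rate-limiting enzyme of the pathway outside red cells, did not pass, with a log2 fold change of -0.10 (SE 0.10) in the authors' deposited table. Of 13 listed genes of peroxidases, the phagocyte oxidase and peroxide defence, 6 fell and 0 rose (46.2% called), with a median of -0.08. Of those 13, 6 had a mean count of 1000 or more, and 5 of these fell. GPX1 (-0.36), PRDX1 (-0.37) and PRDX2 (-0.41) remove peroxides, and NCF1 (-0.64) and RAC2 (-0.21) serve the oxidase, by log2 fold change in the authors' deposited table. NCF1 has near-identical pseudogene copies, so its reads may be split between them. CYBA, the small oxidase membrane subunit, had a log2 fold change of 0.07 (SE 0.04) in the authors' deposited table and did not pass.

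CTSG, ELANE, PRTN3 and AZU1 belong to the neutrophil serine protease family. CTSG encodes cathepsin G, ELANE neutrophil elastase and PRTN3 proteinase 3, while AZU1 encodes azurocidin, an antimicrobial relative without protease activity. The coding sequence around the active-site serine shows this kinship and the exception. These stretches of 27 bases from GENCODE transcripts, all 5′ to 3′, have in capitals the codon of that serine, or in AZU1 the codon in its place:
CTSG: aagggggatTCCggaggccccctgctg
PRTN3: ttcggagacTCAggtggccccctgatc
AZU1: aatggggacGGGggcacccccctcgtc
Over aligned coding bases, ELANE and PRTN3 were 70.5% identical, the closest pair, with a longest shared run of 25 bases. The other 5 pairs were 61.8% to 66.8% identical, with shared runs of 10 to 15 bases.

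The 4 relatives split in direction. CTSG fell, with a log2 fold change of -0.49 (SE 0.04, adjusted p = 1.87e-35), at a mean normalized count of 5994 in the authors' deposited table. Its statistic ranked 12 of all listed genes by size. The implied level was 4989 with BTG2 against 7000 with empty vector, and 5.47% of listed genes had a lower fold change. ELANE rose, with a log2 fold change of 0.23 (SE 0.03, adjusted p = 3.76e-09) at a mean normalized count of 12323 in the authors' deposited table. Its implied level was 13299 with BTG2 against 11348 with empty vector. PRTN3 rose as well, with a log2 fold change of 0.16 (SE 0.05, adjusted p = 0.0114) at a mean normalized count of 3857 in the authors' deposited table. Its implied level was 4069 with BTG2 against 3645 with empty vector. As ratios these changes are 0.713 (95% interval 0.677 to 0.750) for CTSG, 1.17 (1.12 to 1.23) for ELANE and 1.12 (1.05 to 1.19) for PRTN3. AZU1 stood between them, with a log2 fold change of -0.09 (SE 0.03, adjusted p = 0.0152) at a mean normalized count of 18566 in the authors' deposited table. Its implied level was 17964 with BTG2 against 19167 with empty vector. AZU1 no longer passed when fold changes from the authors' deposited table were centred on the median abundant gene and adjusted again over all genes by Benjamini-Hochberg (log2 fold change -0.07, adjusted p = 0.148).

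Among these relatives, the 95% interval of the difference left out 0 for all pairs but PRTN3 and ELANE. Treating the errors of 2 genes as independent, AZU1 minus ELANE was -0.32 on the log2 scale (95% interval -0.41 to -0.23). CTSG minus AZU1 was -0.40 (95% interval -0.49 to -0.30) and CTSG minus ELANE -0.72 (95% interval -0.82 to -0.62). PRTN3 minus ELANE was -0.07, with an interval of -0.18 to 0.04, so their rises could not be told apart at this precision. Across all 8 genes, 25 of 28 pairwise intervals left out 0, without adjustment for the number of pairs. The implied levels of the 4 relatives added up to 40321 with BTG2 against 41160 with empty vector.

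**Figure D2:**
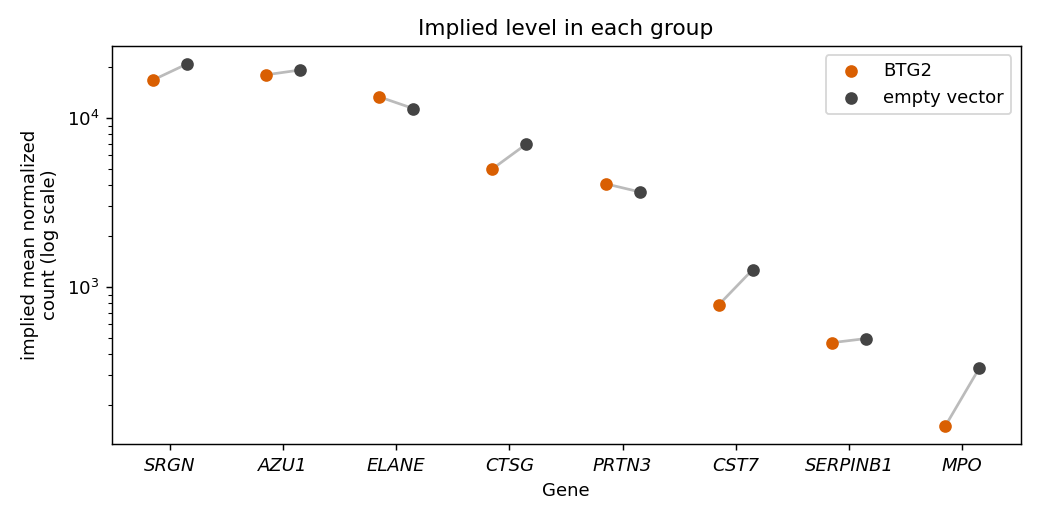
Implied mean normalized count of each granule gene with BTG2 (left point) and empty vector (right point), on a log axis, computed from the authors' mean count and fold change with no error drawn. SRGN and AZU1 lie highest and MPO lowest, and the points of ELANE and PRTN3 slope the other way from those of CTSG, CST7 and MPO.

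AZU1, PRTN3 and ELANE lie side by side on the plus strand of chromosome 19. CTSG lies on chromosome 14 (24573522 to 24576260, minus strand), with no other listed gene within 100 kb. Genes absent from the authors' deposited table were not counted there. AZU1 spans 825097 to 832018, PRTN3 840960 to 848175 and ELANE 851014 to 856247. CFD follows ELANE at a gap of 3.40 kb and encodes complement factor D, a serine protease of the alternative complement pathway. It rose by 0.19 on the log2 scale (SE 0.04, adjusted p = 6.96e-05) by the authors' deposited table. ELANE minus CFD was 0.04 (95% interval -0.07 to 0.14) and PRTN3 minus CFD -0.03 (-0.15 to 0.09) on the log2 scale. PLPPR3, on the other side of AZU1, rose by 0.27 (SE 0.06) and MED16, a Mediator subunit gene, by 0.62 (SE 0.20) on the log2 scale in the authors' deposited table. PRSS57, which encodes the related neutrophil serine protease NSP4, starts 129.6 kb before AZU1 and fell, with a log2 fold change of -0.29 (SE 0.04, adjusted p = 2.48e-09) by the authors' deposited table. ELANE minus PRSS57 was 0.52 (95% interval 0.41 to 0.63) on the log2 scale. Around all 8 genes, 19 other listed genes lay within 100 kb, and 5 of these were called higher and 1 lower. Over all listed genes 3.64% were higher and 4.47% lower. Of the 5, CFD and PLPPR3 have mean counts of 1000 or more, where 11.7% of genes were higher. TSPOAP1 and MIR142HG, also among the 5, have the uncertain values described with MPO. The lower gene was APMAP beside CST7, with a log2 fold change of -0.33 (SE 0.11) by the authors' deposited table. The part of position in these calls was not tested.

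**Figure D3:**
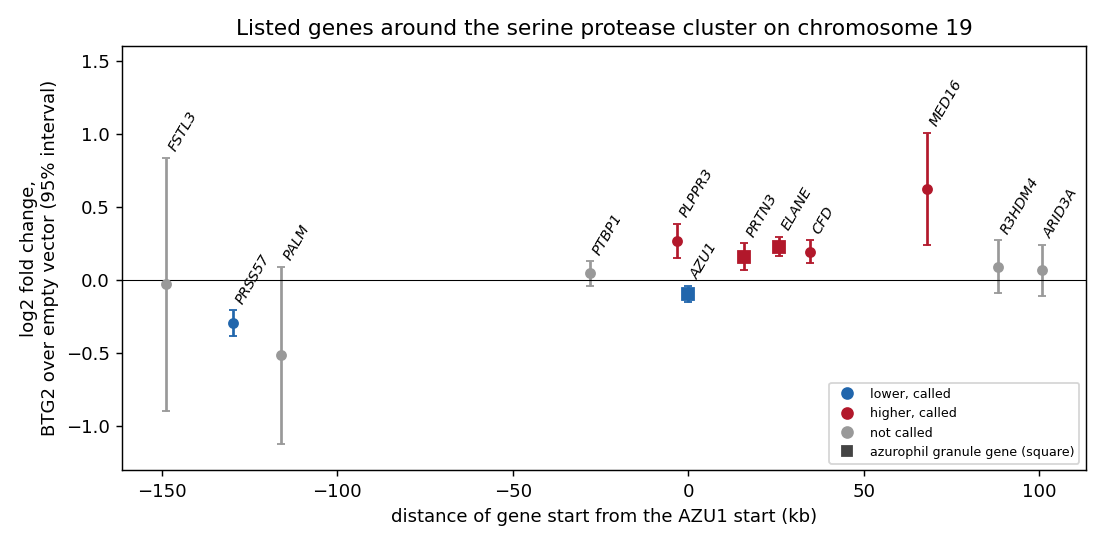
Log2 fold change with 95% interval of each listed gene by the distance of its start from the AZU1 start in kb, with granule genes as squares. PRTN3, ELANE and CFD lie above 0 beside each other, while AZU1 and the more distant PRSS57 lie below it.

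Promoters are shown for CTSG and AZU1, which fell, and for PRTN3, which rose, to set their sequences side by side. RefSeq promoters on GRCh38.p14 were matched for 4 of the 8 genes (CTSG, AZU1, PRTN3 and SERPINB1). Each line gives the 250 bases before the RefSeq start in the direction of the gene, and capitals mark matches on either strand to the motifs searched. RefSeq and GENCODE starts differ. The AZU1 window lies inside the GENCODE span of AZU1 (825097 to 832018), downstream of the start from which distances are given here. CTSG is at chr14:24576251-24576500 (minus strand), AZU1 at chr19:827587-827836 and PRTN3 at chr19:840749-840998 (both plus strand):
CTSG: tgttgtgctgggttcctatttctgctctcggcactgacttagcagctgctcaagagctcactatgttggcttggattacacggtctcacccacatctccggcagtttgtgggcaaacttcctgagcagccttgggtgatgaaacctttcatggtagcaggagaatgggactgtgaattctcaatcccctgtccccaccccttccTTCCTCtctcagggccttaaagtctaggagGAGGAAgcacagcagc
AZU1: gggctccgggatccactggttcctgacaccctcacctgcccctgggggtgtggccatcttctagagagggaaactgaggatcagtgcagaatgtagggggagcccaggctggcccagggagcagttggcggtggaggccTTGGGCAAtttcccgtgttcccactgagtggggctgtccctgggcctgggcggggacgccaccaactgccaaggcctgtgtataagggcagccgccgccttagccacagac
PRTN3: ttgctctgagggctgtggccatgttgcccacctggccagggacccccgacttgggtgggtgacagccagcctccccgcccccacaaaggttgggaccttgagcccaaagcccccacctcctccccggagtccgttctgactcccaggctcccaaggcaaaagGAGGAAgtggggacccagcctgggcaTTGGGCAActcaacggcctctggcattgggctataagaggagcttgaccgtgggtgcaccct
The motifs were TTNNGNAA for C/EBP, TGTGGT for RUNX, GAGGAA for PU.1, TAACNG for MYB and TATAAA for the TATA box, searched on both strands. AZU1 and PRTN3 held the same C/EBP match, TTGGGCAA, beginning at position -111 in AZU1 and -62 in PRTN3. Of 27305 promoters of this length 33.6% hold that motif, and of the 9026 of listed genes 23.1% do. GAGGAA or its reverse complement lay at -46 and -16 in CTSG and at -88 in PRTN3. It is held by 23.4% of all these promoters and 23.0% of those of listed genes. None of the 5 motifs lay in the SERPINB1 window, and the RUNX, MYB and TATA letters lay in none of the 4 windows, which says only that those letters are not there.

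SRGN encodes serglycin, the chondroitin sulfate proteoglycan on which granule proteins are packed. It fell, with a log2 fold change of -0.31 (SE 0.03, adjusted p = 4.14e-23) at a mean normalized count of 18762 in the authors' deposited table. The ratio was 0.804 (95% interval 0.772 to 0.838). In implied counts this was the largest change of the 8 genes, with an implied level of 16727 with BTG2 against 20798 with empty vector. SRGN lies on chromosome 10 (69088106 to 69104811, plus strand), and the 3 listed genes within 100 kb of it did not pass the test. Of 21 listed genes that build or sulfate such chains, 2 fell and 0 rose, with a median log2 fold change of 0.04. The share called, 9.52%, was near the 8.11% of all listed genes, so it is no result about these genes. CHST13 fell by 0.37 (SE 0.12, adjusted p = 0.0236) and CHST11 by 0.31 (SE 0.11, adjusted p = 0.0430) on the log2 scale in the authors' deposited table, and both encode chondroitin 4-O-sulfotransferases.

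CST7 encodes cystatin F, an inhibitor of cysteine cathepsins that is targeted to endosomal and granule compartments and can block cathepsin C. It fell, with a log2 fold change of -0.69 (SE 0.07, adjusted p = 6.84e-19) at a mean normalized count of 1025 in the authors' deposited table. The ratio was 0.619 (95% interval 0.561 to 0.684), with an implied level of 784 with BTG2 against 1266 with empty vector. Other cystatins fell less. CSTA, a cytosolic cystatin, had a log2 fold change of -0.31 (SE 0.06, adjusted p = 4.15e-06) and CST3, the secreted cystatin C, stood at -0.27 (SE 0.05, adjusted p = 1.55e-05) by the authors' deposited table. CST7 minus CSTA was -0.38 (95% interval -0.56 to -0.20) and CST7 minus CST3 -0.42 (-0.60 to -0.25) on the log2 scale. CSTB, at -0.14 (SE 0.07) in the authors' deposited table, did not pass. Of the 7 listed papain-like cathepsins, 1 was called (14.3%). This was CTSC, cathepsin C, which trims the proforms of elastase, cathepsin G and proteinase 3 to active enzymes. Its log2 fold change was -0.19 (SE 0.07, adjusted p = 0.0410) by the authors' deposited table.

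SERPINB1 encodes a cytosolic serpin that inhibits elastase, cathepsin G and proteinase 3. It did not pass the test, with a log2 fold change of -0.08 (SE 0.11, adjusted p = 0.851) at a mean normalized count of 481 in the authors' deposited table. Its implied level was 467 with BTG2 against 494 with empty vector. Its 95% interval, -0.30 to 0.14, leaves out a change as large as that of CST7, CTSG or MPO, but not one as large as that of AZU1. Of 9 listed inhibitors of granule and lysosomal proteases, CST7 and SERPINB1 among them, 4 fell and 0 rose (44.4% called), with a median log2 fold change of -0.14. The fourth was SPINT2, whose fitted value of -6.41 at a mean normalized count of 7.26 in the authors' deposited table does not measure a fold.

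**Figure D4:**
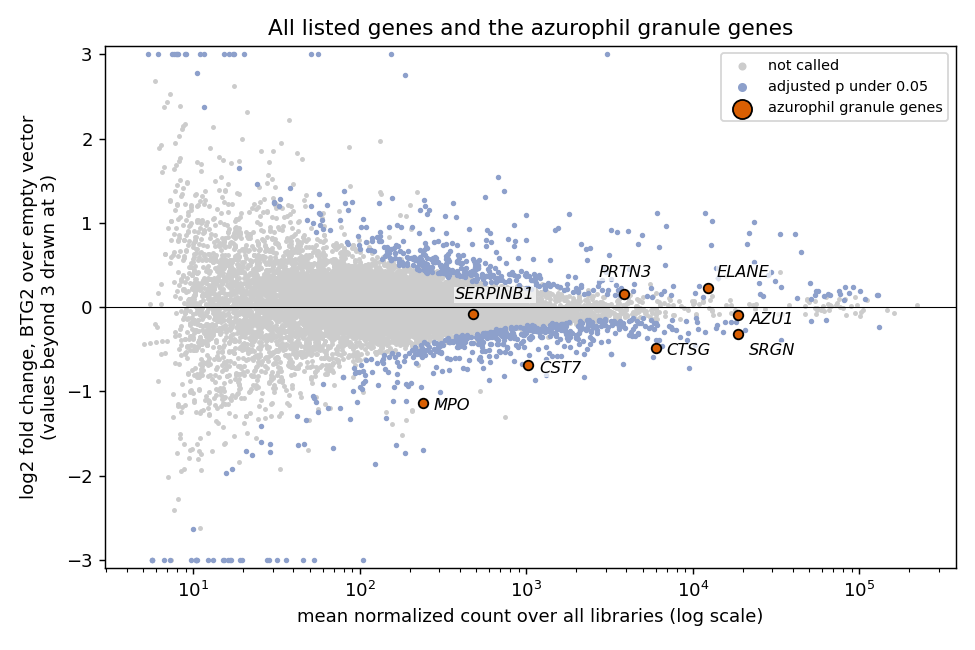
Log2 fold change of BTG2 over empty vector against mean normalized count (log axis) for all 11597 listed genes, with the 8 granule genes marked. SRGN, AZU1 and ELANE lie among the most abundant genes, where changes are small, and MPO lies at a lower count near the bottom edge of the cloud.

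Per kb of transcript, the mean normalized count was highest for AZU1 at 20447, followed by SRGN at 15531, ELANE at 11988 and CTSG at 6766. PRTN3 (3759), CST7 (1102), SERPINB1 (184) and MPO (74.6) came after them, against a median of 49.7 per kb over 10484 coding genes. These levels carry no error, since values for single libraries were not used, and they are comparable only if reads scale with transcript length, which the sources leave unclear. The 8 genes together took 0.593% of all mean normalized counts. Most of their transcripts were short. CTSG, ELANE, PRTN3, AZU1 and CST7 had 3′ UTRs of 81 to 216 bases, against a lower quartile of 418 and a median of 1062 over coding genes. SRGN (691 bases), MPO (800) and SERPINB1 (1276) had longer ones. The AUUUA pentamer, the core of AU-rich elements, occurred 3 times in the 3′ UTR of MPO, 1 time in that of SERPINB1 and in none of the other 6, where 31.0% of coding genes had none. Of the genes with the short 3′ UTRs, CTSG and CST7 fell, AZU1 fell slightly, and ELANE and PRTN3 rose. The part of 3′ UTR length or of AUUUA in these changes was not tested.

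Other azurophil cargo was also split. Of 21 listed genes for further granule contents and membrane proteins, 3 fell, 2 rose (23.8% called) and 16 did not pass, with a median log2 fold change of 0.00. In the range of 1000 counts or more, 4 of 8 were called. LYZ, lysozyme, fell by 0.39 (SE 0.05, adjusted p = 5e-11) on the log2 scale in the authors' deposited table, beside PRSS57. BPI, which binds bacterial lipopolysaccharide, fell by 0.72 (SE 0.24, adjusted p = 0.0405) at a mean normalized count of 92.7 in the authors' deposited table. CD63, a tetraspanin of the granule membrane, rose by 0.26 (SE 0.06, adjusted p = 0.00144) and MAN2B1, the lysosomal alpha-mannosidase, by 0.23 (SE 0.06, adjusted p = 0.00541) on the log2 scale in the authors' deposited table. RNASE2, a ribonuclease of eosinophils and other myeloid cells, was as abundant as PRSS57, at a mean normalized count of 4287, and did not pass (log2 fold change -0.08, SE 0.04) in the authors' deposited table. Of the specific and gelatinase granule genes, which neutrophil precursors make later, 4 of 18 were listed. Of these CHI3L1, a chitinase-like protein, rose by 0.46 (SE 0.10, adjusted p = 0.000204) on the log2 scale in the authors' deposited table. Of 11 granzyme, perforin and mast cell protease genes 0 were listed.

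The machinery that folds, trims and sorts granule proteins gave 3 falls and 2 rises among 30 listed genes (16.7% called), with a median log2 fold change of 0.06. Of the 5 called genes, 4 are among the 7 with a mean count of 1000 or more. CALR, calreticulin, binds the myeloperoxidase precursor during folding and fell by 0.73 (SE 0.04, adjusted p = 6.72e-73) on the log2 scale in the authors' deposited table. HAX1, a mitochondrial protein whose loss causes congenital neutropenia, fell by 0.31 (SE 0.06, adjusted p = 1.15e-05) by the authors' deposited table. AP1M1, a subunit of the AP-1 sorting adaptor, rose by 0.55 (SE 0.11, adjusted p = 2.35e-05) and LYST, whose loss gives giant granules, by 0.27 (SE 0.07, adjusted p = 0.00290) on the log2 scale in the authors' deposited table. CTSC, given above with the cathepsins, was the remaining fall.

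Transcription factors known to control granule genes moved in both directions, with 5 of 17 lower, 4 higher (52.9% called) and a median log2 fold change of -0.11. CEBPA, needed for granulocyte commitment, fell by 0.26 (SE 0.05, adjusted p = 2.02e-06) and MYB by 0.27 (SE 0.06, adjusted p = 0.000826) on the log2 scale in the authors' deposited table. IRF8, which favours monocytes over granulocytes, fell by 0.42 (SE 0.05, adjusted p = 2.39e-16) by the authors' deposited table. RUNX1 rose by 0.42 (SE 0.10, adjusted p = 0.00156) and the retinoic acid receptor gene RARA by 0.95 (SE 0.21, adjusted p = 0.000172) on the log2 scale in the authors' deposited table. Among the 15 listed myeloid surface genes, 2 fell and 1 rose (20% called), with a median of -0.02. The Fc receptor gene FCGR1A had a log2 fold change of -0.39 (SE 0.10), while IL3RA was at -0.38 (SE 0.11) and FLT3 at 0.23 (SE 0.07) by the authors' deposited table. The part of these factors or of cell state in the granule gene values was not tested.

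**Figure D5:**
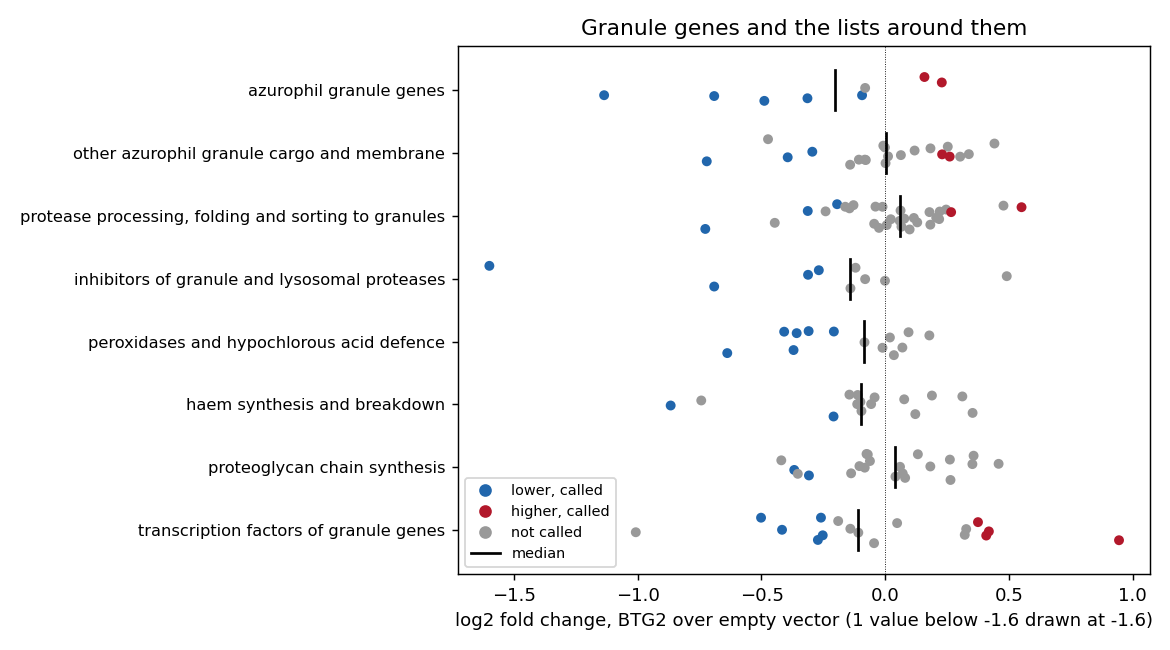
Log2 fold change of BTG2 over empty vector for each listed gene of the granule set and 7 related lists, coloured by call, with the list median as a bar. The granule genes have a median of -0.20 and spread from MPO at -1.14 to ELANE at 0.23, while the other medians lie between -0.14 and 0.06. Without MPO the granule median is -0.09, inside that range.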

How the data were processed

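Poly(A) RNA of 4 MOLM13 libraries was compared by the authors, 2 with BTG2 and 2 with empty vector, grouped here by sample title. Per the labels' protocols, libraries came from a strand-specific RNA-seq kit read as 150 bp pairs, whereas the series title names long reads. The submitters' processing notes name minimap2 and hg38. For counting, normalization and testing the program was not given in the sources used here. The authors deposited a mean normalized count per gene, a signal that is never negative, with a log2 fold change, its standard error, a test statistic (a score), a p-value and an adjusted p-value, per the file headers. The deposited score equals the fold change over its error within 2.72e-07, and Benjamini-Hochberg adjustment of the deposited p-value over all 11597 genes returns the deposited adjusted values within 1.48e-06. With no counts per library, no count model could be run and depth is unknown.

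Computed here were 95% intervals (1.96 standard errors), pairwise differences with independent errors, and implied group levels, which take the mean as equally weighted over both groups. Named genes were the 8 members, up to 5 called genes per list by size of the statistic, and listed genes within 100 kb of a member. Outside that rule, and chosen after their values were seen, are ALAS1, CYBA, CSTB, RNASE2, CD33, ITGB2, PTPRC and TRAC. Genes were matched by Ensembl identifier to GENCODE release 29 (11398, or 98.3%), using each gene's principal coding transcript. Members and lists were chosen with earlier results of these data known. Python 3.11.15, numpy 2.4.6, pandas 2.3.3, scipy 1.17.1 and Biopython 1.88 were used.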

Additional observations from a re-analysis of the deposited data

How the results depend on the processing

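At an adjusted p limit of 0.01 the called granule genes were 4 lower and 1 higher, at a minimum absolute log2 fold change of 0.5 they were 2 and 0, and when tested against a change of 0.25 on the log2 scale they were 3 and 0. With the statistic read against a t distribution with 2 degrees of freedom in place of the authors' normal tail, 0 were lower and 0 higher, as over all listed genes. Before adjustment, a p under 0.05 was reached by 4 lower and 1 higher granule genes, and by 204 lower and 162 higher of all 11597 listed genes (3.16%). A limit of 0.1 and adjustment within the more abundant 5799 genes left 5 lower and 2 higher. Recentring on the median abundant gene left 4 and 2, AZU1 being lost, as did recentring on genes with a mean count of 1000 or more, chosen after seeing the data. That second centring value, -0.06 on the log2 scale, turned the split over all genes to 607 higher and 359 lower, against 422 and 518 as deposited. Counts over all genes were 622 at the 0.01 limit, 388 with the fold minimum and 175 against 0.25, where 940 were called as deposited. At the 0.1 limit 1223 of all genes were called, and with adjustment within the more abundant 5799 genes 922 of those were. Recentring on the median abundant gene gave 433 lower and 500 higher over all genes. The median log2 fold change of the granule genes was -0.09 without MPO, and no sign of a granule gene reversed. Leaving out replicates was not run. No paired analysis was possible because the table holds no values per library.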
